A study of Rattus norvegicus with 72 samples.

Results

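Lungs of rats that had breathed filtered air were compared between day 7 and day 1 after the end of inhalation. The rats were adult male Sprague-Dawley animals of 200 to 250 g, housed in pairs, that spent 6 hours a day for 4 days in whole-body inhalation. The comparison takes every filtered-air library of the 2 days by the day and treatment in its title, which gave 24 of the 72 libraries of the series, 12 per day and 1 per animal. Each day holds 6 animals whose titles carry the letter H and 6 with the letter L. In the exposed rats of the same study H goes with 1000 and L with 200 ug/m3 of diesel exhaust particles. All 24 animals had 0 ug/m3, and the labels do not say what else separates the letters. The day was therefore tested with the letter as a block, and again within each letter. Rats killed at day 7 were 6 days further from their sessions and 6 days older. Age, time since inhalation, and any difference in how the libraries of the days were made cannot be told apart.

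The distal lung is held open by a matrix of elastic fibres and collagens, made mainly by fibroblasts and smooth muscle cells during growth. Elastic fibres are elastin laid on a fibrillin scaffold with the help of fibulins and latent TGF-beta binding proteins. Lung RNA is also known to follow the circadian clock, glucocorticoid hormones and the growth of the animal.

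Libraries of day 1 were shallower, with 1288275 to 2397971 counts against 3471134 to 4969712 at day 7. Thinned to 1288275 counts each, 16578 to 16790 genes had a count at day 1 and 16539 to 16733 at day 7. Levels are given below in CPM, counts brought to 1000000 per library with TMM factors, which correct for differences in RNA composition. Lung markers were high in every library, with 3634 CPM or more of the surfactant protein gene Sftpc and 874.5 CPM or more of the club cell gene Scgb1a1. Several air L libraries of day 1 stood apart. Rmrp, the RNA of the ribonuclease MRP complex, stood at 38350 and 40400 CPM in animals 049 and 051 and at 11620 and 12080 CPM in animals 050 and 052. The other 20 air libraries of the 2 days held 3862 to 8070 CPM of Rmrp, animals 053 and 054 of the same group among them. Exposed L lungs of day 1 varied alike, from 3083 to 22550 CPM. Animals 053 and 054 were also the most similar of all 60 pairs within groups, with a chi-square per degree of freedom of 1.27. The next pair, 049 and 051 of the same group, had 1.79, and the other groups had 2.12 or more. The H libraries of day 7 stood apart in another way, given with the comparison of the letters below. Results are therefore given for H and L alone, and counts also without animals 049 to 052. In that setting animals 053 and 054 are the only air L libraries of day 1. Whether calls lost there come from the smaller group was not tested.

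In the blocked comparison 4347 of 13788 tested genes (31.5%) passed an adjusted p of 0.05 in edgeR's quasi-likelihood test. Of these, 1827 (13.3%) were higher and 2520 (18.3%) lower at day 7. Most changes were small, with a median absolute log2 fold change of 0.362 among called genes and 79.9% of them under a fold of 1.5. Past a fold of 2 lay 16 genes that rose and 157 that fell. In air H alone 5278 genes (38.3%) passed, 2392 higher (17.3%) and 2886 lower (20.9%). In air L alone 2102 genes (15.2%) passed, 920 higher (6.67%) and 1182 lower (8.57%). Both letters alone called 1238 genes, 1076 of them the same way and 162 opposite ways. The day effect itself differed between the letters in 2719 genes (19.7%). Among them were 1255 of the blocked calls (28.9%), so a blocked call is not always an equal change in both letters. The H and L estimates had the same sign in 4093 blocked calls (94.2%). After thinning all libraries to one total, 3359 of 12160 tested genes passed in the blocked fit, and 3184 of these were called the same way at full depth. Without animals 049 to 052 the blocked count was 5434, the H count 5701 and the L count 664, of which 471 were called the same way with them. The blocked share of higher calls was 42%, and it was 59.8% with library totals in place of TMM factors and 54.1% with no filter on low counts.

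**Figure D1:**
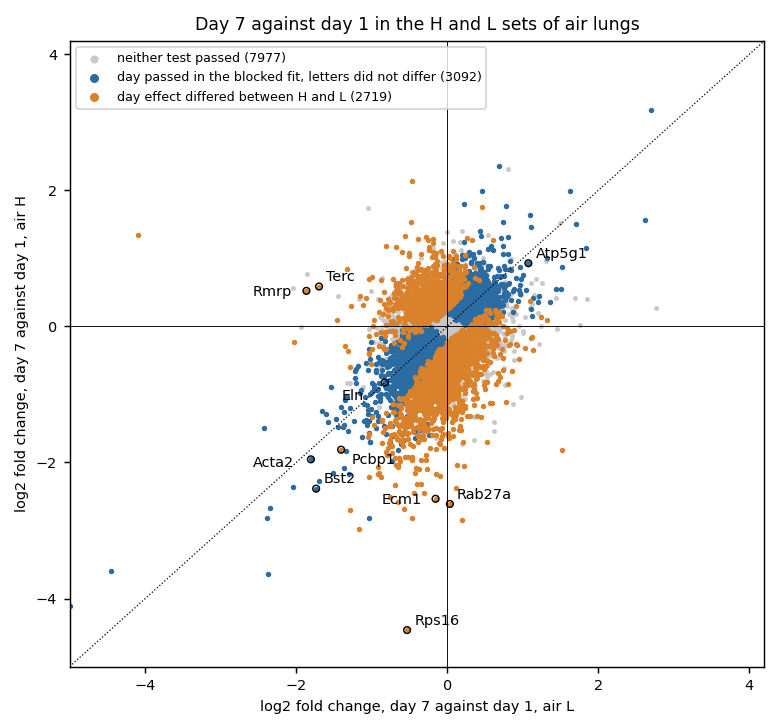
Each point is 1 of 13788 genes, placed by its log2 fold change (day 7 against day 1) in air L on the x axis and in air H on the y axis, with 1 gene outside the axes. Genes such as Eln, Acta2 and Atp5g1 lie near the dotted line of equal change, while the 2719 orange genes, Rps16, Rab27a and Ecm1 among them, changed differently in the letters.

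Among genes that passed in the blocked fit and in both letters alone, with no call of a difference between letters, 756 had enough signal and a gene symbol to be named. The largest falls included Acta2, the actin of smooth muscle, Bst2, the antiviral membrane protein tetherin, the linker histone H1fx, the transcription factor Sp2, the neuronal splicing factor Nova2 and Kcnk3, a potassium leak channel of pulmonary artery smooth muscle. Acta2 ranged from 127.8 through a median of 174.5 to 215.4 CPM in the 12 lungs of day 1 and from 26.11 through 47.54 to 68.96 CPM at day 7. No lung of day 7 reached the lowest lung of day 1. The blocked log2 fold change of Acta2 was -1.88 (SE 0.13), with -1.95 in H and -1.81 in L and an adjusted p of 3.5e-10. Bst2 fell by 2.04 on the log2 scale (SE 0.13), from 154 ± 39.0 to 39.2 ± 15.7 CPM (SD, n = 12 each), again with no overlap. Sp2 fell by 1.70, Kcnk3 by 1.46 and H1fx by 1.78 on the log2 scale, and of these H1fx overlapped between days. Nova2 fell by 1.68, Stac2 by 1.56 and Gm5471 by 1.42. The transfer RNA genes Trnl1 and Trnm fell by 2.59 and 2.18 on the same scale, from 11.5 ± 5.39 and 16.2 ± 3.62 CPM (SD, n = 12) at day 1.

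The largest rises that both letters shared were smaller. Atp5g1, a membrane subunit of the mitochondrial ATP synthase, stood at 9.228 to 19.04 CPM at day 1, with a median of 12.33, and at 21.79 to 31.79 CPM at day 7, with a median of 25.59. Its groups did not overlap, and the log2 fold change was 0.99 (SE 0.10, adjusted p 7.7e-09). Tf, the iron carrier transferrin, rose by 0.83 (SE 0.07) from 61.7 ± 11.3 to 111 ± 10.3 CPM (SD, n = 12), also with no overlap. Pex5, the import receptor of peroxisomes, had the largest rise at 1.30 (SE 0.24) but stood at 3.09 ± 1.66 CPM at day 1, and its groups overlapped. Ddit3, the stress transcription factor CHOP, rose by 0.81, Stmn1, a microtubule regulator, by 0.91, Rangrf by 0.95, Srsf5-2 by 0.88, Wdr83os by 0.74 and the mitochondrial ribosomal protein Mrps18a by 0.81. Across all tested genes, 76 had every day 7 library above every day 1 library and 159 had every one below, together 1.7% of genes.

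Of 11 tested members of the smooth muscle list, 9 were lower at day 7 and 0 higher, where 18.3% of all tested genes were lower, and the median log2 fold change was -0.38 against -1.54e-05 over all genes. Synpo2, an actin-bundling protein, fell by 0.90 (SE 0.09) from 65.9 ± 7.82 to 36 ± 7.58 CPM (SD, n = 12) with no overlap. Smtn, or smoothelin, fell by 0.52 (SE 0.07), and Myocd, the transcriptional coactivator of smooth muscle genes, by 0.87 (SE 0.14). Cnn1, or calponin, fell by 1.32 in L (adjusted p 2e-06), with -0.37 in H (adjusted p 0.086), and this difference between letters passed. The remaining called members were Actg2, Lmod1, Des and Myl9. Myl9 lost its call in 20 of 24 fits that left out 1 library, and Des had -0.06 without animals 049 to 052 (adjusted p 0.677). The abundant contractile genes did not all follow. Myh11, the smooth muscle myosin, stood at 546 ± 132 CPM at day 1 and 530 ± 78.1 CPM at day 7, and Tagln at 253 ± 62.6 and 217 ± 42.7 CPM, and neither passed in the blocked fit, although Tagln fell by 0.72 in L. In H alone 0 members were higher and 4 lower, and in L alone 0 and 8. Over all genes 17.3% were higher and 20.9% lower in H, and 6.67% and 8.57% in L. The counts by letter of the lists below stand beside the same shares. Both after thinning and without animals 049 to 052 the blocked counts were 0 and 7. The summed level of the 11 members ranged from 1182 to 1609 CPM at day 1 and from 853.9 to 1335 CPM at day 7, so it overlapped. In pieces of whole lung, fewer cells of a type and less RNA per cell cannot be told apart, here and below.

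Elastic fibre genes changed in both directions. Of 15 tested members 7 were lower and 4 higher, a share of 73.3% called against 31.5% of all genes. Eln, the elastin precursor, ranged from 1142 through a median of 1461 to 1669 CPM at day 1 and from 627.7 through 834.8 to 974.8 CPM at day 7. Every lung of day 7 lay below every lung of day 1. The log2 fold change of Eln was -0.82 (SE 0.07, adjusted p 1.0e-10), with -0.82 in H and -0.83 in L. At day 27, which entered no test here, air lungs held 587 ± 78.6 CPM in H and 403 ± 88.2 CPM in L (SD, n = 6). Fbn1, the fibrillin scaffold, fell by 0.19 (SE 0.04), from 827 ± 42.5 to 731 ± 48.5 CPM. The latent TGF-beta binding proteins Ltbp3 and Ltbp4 fell by 0.80 (SE 0.09) and 0.85 (SE 0.10), Ltbp4 more in H (-1.19) than in L (-0.52) with an adjusted p of the difference of 0.0015. The fibulins Fbln1 and Fbln5 fell by 0.45 and 0.48, and Ltbp2 by 0.19. The 4 genes that rose were the fibulin family members Efemp1 (0.47, SE 0.08) and Efemp2 (0.31, SE 0.09), the microfibril protein Mfap5 (0.32, SE 0.10) and Emilin2 (0.38, SE 0.14). Ltbp2 had -0.05 (adjusted p 0.545) and Efemp2 0.22 (adjusted p 0.103) without animals 049 to 052. Emilin2 lost its call in 8 of 24 fits that left out 1 library. Leaving out animals 049 to 052 gave 4 higher and 6 lower, and the list's median moved from -0.12 to -0.05.

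**Figure D2:**
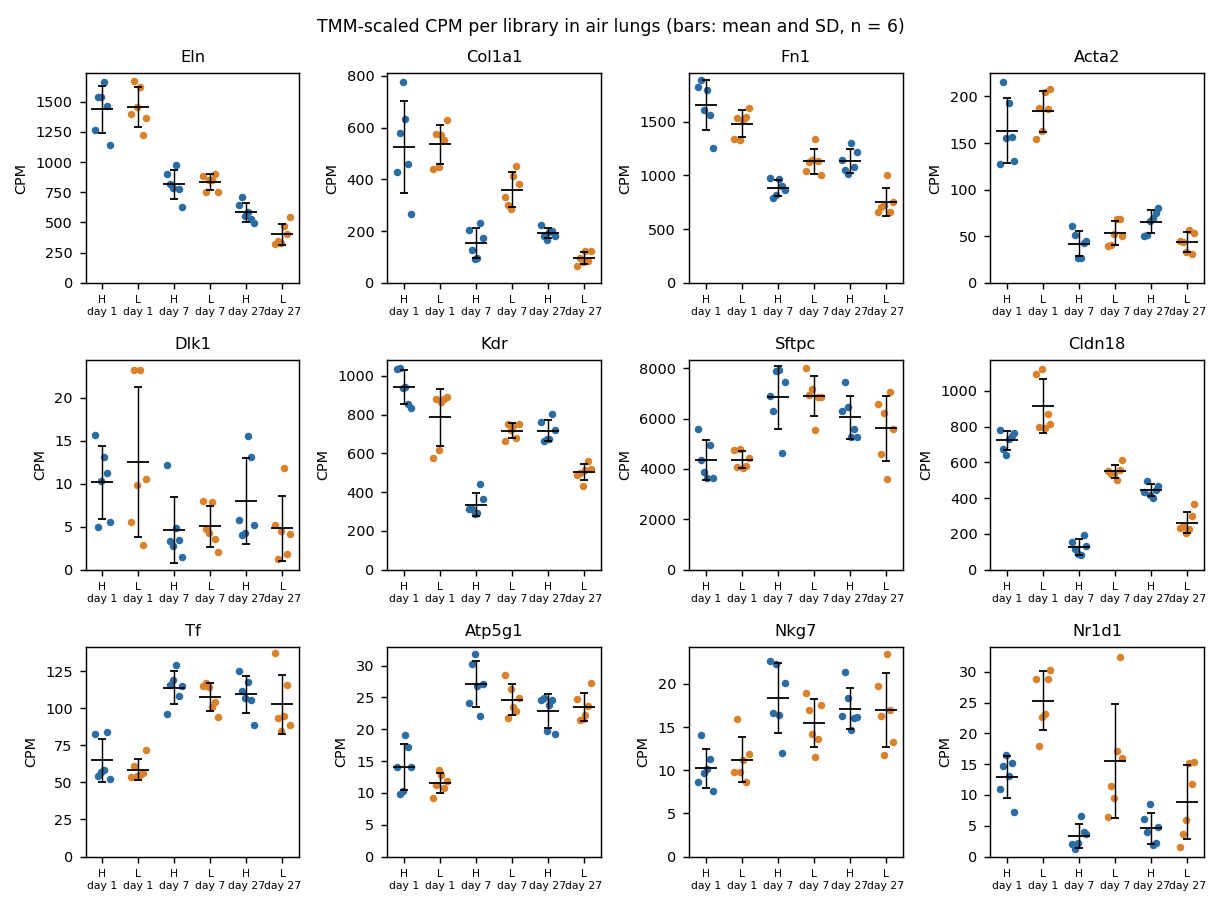
CPM per library of 12 genes in air H (blue) and air L (orange) at days 1, 7 and 27, 6 libraries per group, with mean and SD as black bars and linear axes from 0. Eln and Acta2 fell between day 1 and day 7 by similar amounts in both letters, while Kdr and Cldn18 were lowest in air H of day 7.

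Fibrillar collagens and their processing enzymes gave 2 higher and 7 lower of 33 tested members, 27.3% called where 31.5% of all genes were. In H alone 8 were higher and 4 lower, and in L alone 1 and 5. Col1a1, a chain of type I collagen, ranged from 264.2 to 774.4 CPM at day 1 and from 91.27 to 451 CPM at day 7 and overlapped. It fell by 1.17 (SE 0.21, adjusted p 0.00021), with -1.76 in H and -0.59 in L, where the L change alone had an adjusted p of 0.10 and the letters differed. Biglycan (Bgn), a small proteoglycan of the matrix, fell by 0.59 (SE 0.13), the collagen chaperone Serpinh1 by 0.29 (SE 0.08), and Lox, which crosslinks collagen and elastin, by 0.32 (SE 0.09). Col5a1, Col5a3 and Fmod were the other members that fell, by 0.22, 0.52 and 0.85. The lysine hydroxylase Plod3 rose by 0.34 (SE 0.06), and P4hb, a subunit of prolyl 4-hydroxylase, by 0.14 (SE 0.05). Col3a1 did not pass, with 3746 ± 472 CPM at day 1 and 4131 ± 529 CPM at day 7. This list was sensitive to the settings, since without animals 049 to 052 it gave 7 higher and 8 lower, and with library totals 8 and 7.

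Of 16 tested matricellular and fibrosis genes 5 fell and 1 rose, 37.5% called where 31.5% of all genes were. Fibronectin (Fn1) fell by 0.66 (SE 0.08), from 1567 ± 198 to 1006 ± 158 CPM (SD, n = 12), by 0.91 in H and 0.41 in L. Tgfb1, the ligand of the TGF-beta pathway that is stored in the matrix, ranged from 25.02 to 48.18 CPM at day 1 and from 5.712 to 26.43 CPM at day 7. It fell by 1.31 (SE 0.17, adjusted p 2.2e-06), by 1.89 in H and 0.80 in L. Ctgf fell by 0.58, Tgfb3 by 0.28 and Tgfb2 by 0.18, and periostin (Postn) rose by 0.14 with an adjusted p of 0.049. Postn lost its call in 9 of 24 fits that left out 1 library and Tgfb2 in 6, and Tgfb3 had -0.21 without animals 049 to 052 (adjusted p 0.121). Of 20 tested basement membrane genes 6 fell and 2 rose, 40% called. Those that fell included nidogen (Nid1, -0.30), the type IV collagen chain Col4a1 (-0.21), Col18a1 (-0.27) and the laminin chain Lamc1 (-0.19), while the laminin chains Lamb1 and Lamb3 rose by 0.19 and 0.23. Of 13 tested fibroblast markers 3 rose and 2 fell, 38.5% called. Their summed level was 1502 to 1759 CPM at day 1 and 1442 to 1833 CPM at day 7. Dpt and Tcf21 fell by 0.66 and 0.45, and Plin2, Ces1d and Mfap5 rose by 0.38, 0.38 and 0.32.

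Epithelial genes did not move as one group. Sftpc, the surfactant protein C gene of type II cells, rose by 0.64 (SE 0.08, adjusted p 3.0e-07), from 4351 ± 581 to 6871 ± 997 CPM (SD, n = 12), by 0.65 in H and 0.64 in L. Of the 13 tested type II markers 2 rose and 2 fell. The lipid transporter Abca3 rose by 0.19, while Nkx2-1, the transcription factor of the lung lineage, fell by 0.42 (SE 0.08) and Cd36 by 0.23. Sftpa1 stood at 4677 ± 905 and 5081 ± 576 CPM and did not pass. Of 13 type I markers 1 rose, Pdpn by 0.38, and 3 fell. Cldn18, a tight junction protein of alveolar cells, fell by 1.61 (SE 0.23), to 128 ± 43.4 CPM in H but 549 ± 37.8 CPM in L (SD, n = 6), from 723 ± 53.9 and 915 ± 151 CPM. The chloride channel family gene Clic5 fell by 1.44 in H and 0.52 in L, and Emp2 by 0.11 in the blocked fit. The day effect differed between letters in 10 of the 13 type I markers, and in 19.7% of all genes. Of 10 club and secretory genes 2 rose and 1 fell. Scgb1a1, the secretoglobin of club cells, fell by 1.02 (SE 0.16), from 2857 ± 681 to 1470 ± 494 CPM, while the enzymes Aldh1a1 and Cyp2b1 rose by 0.37 and 0.33. Of 17 motile cilium genes 3 fell, Ccdc40 by 0.85, Dnah9 by 0.38 and Spag6 by 0.36, and 0 rose. The calls of Cd36, Emp2 and Spag6 were lost in 14, 18 and 17 of 24 fits that left out 1 library. The shares called were 30.8% of type II, 30.8% of type I, 30% of club and 17.6% of cilium genes, against 31.5% of all genes.

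Endothelial genes held large falls in air H. Of 19 tested members 6 fell and 1 rose in the blocked fit, 36.8% called where 31.5% of all genes were. In H 7 fell and 1 rose, where 20.9% of all genes fell and 17.3% rose. In L 3 fell and 2 rose, where 8.57% of all genes fell and 6.67% rose. The day effect differed between letters in 7 of the 19, and in 19.7% of all genes. Kdr, the main receptor of vascular endothelial growth factor, fell by 1.5 in H (adjusted p 2.3e-12), with -0.15 in L (adjusted p 0.37), and the adjusted p of the difference was 1.3e-07. In CPM it went from 942 ± 87.8 to 335 ± 58.7 in H and from 785 ± 147 to 718 ± 37.7 in L (SD, n = 6). Cdh5, the cadherin of endothelial junctions, fell by 0.85 in H and stood at 708 ± 56.7 and 714 ± 41.7 CPM in L. Aplnr fell by 0.22 and Prox1, a lymphatic transcription factor, by 0.58 in the blocked fit. Aplnr had an adjusted p of 0.0518 without animals 049 to 052, and Prox1 had 0.0524 after thinning. Cd93 and Gja5, also called lower, lost their calls in 21 and 9 of 24 fits that left out 1 library. The blocked list gave 0 higher and 4 lower after thinning, and 3 and 3 with no filter. Pecam1, the general endothelial marker, did not pass, with 309 ± 51.4 CPM at day 1 and 304 ± 39.1 CPM at day 7.

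Lymphocyte markers went in different directions. Of 16 tested T cell genes 6 fell, where 18.3% of all genes did, and 0 rose. In H alone 3 were higher and 5 lower, and in L alone 0 and 4. Cd3g, a chain of the T cell receptor complex, ranged from 1.785 to 7.993 CPM at day 1 and from 1.762 to 3.153 CPM at day 7, and fell by 1.30 (SE 0.18, adjusted p 2.0e-06), by 1.19 in H and 1.41 in L. Tcf7 and Lef1, transcription factors of naive T cells, fell by 0.83 (SE 0.09) and 0.66 (SE 0.13), Cd4 by 0.34 and Bcl11b by 0.40. Cd3e, a further chain of the same complex, stood at 6.83 ± 2.14 and 6.16 ± 1.58 CPM and did not pass. The 16 T cell genes summed to 226.6 to 344.8 CPM at day 1 and 214.9 to 269.2 CPM at day 7. The list gave 2 higher and 6 lower without animals 049 to 052. Of 13 natural killer and cytotoxic genes 6 rose and 1 fell, 53.8% called where 31.5% of all genes were. Their median log2 fold change was 0.43. Nkg7, a granule membrane protein, rose by 0.65 (SE 0.13), from 10.7 ± 2.37 to 16.9 ± 3.66 CPM (SD, n = 12), and Klrb1a, Gzmk, Gzma, Il2rb and Klrd1 rose by 0.67, 0.54, 0.58, 0.35 and 0.61. Klrd1 had 0.46 without animals 049 to 052 (adjusted p 0.138). Klrk1, the activating receptor NKG2D, fell by 0.45 (SE 0.09). In L alone 0 cytotoxic genes were higher and 1 lower. Between letters 1 of the 13 members differed, where 19.7% of all genes did. Among other blood cells 1 of 12 B cell genes fell (Cd22, -0.41), 2 of 10 erythroid genes fell (Slc4a1, -1.19, and Hba1, -0.41), and 1 of 6 platelet genes rose (Clec1b, 0.54). The B cell, erythroid and platelet lists had 8.33%, 20% and 16.7% called. Of 7 neutrophil genes 0 passed, Cxcr1 having 0.44 with an adjusted p of 0.08, and of 6 mast cell genes 0 passed, Cpa3 having 0.72 with an adjusted p of 0.083.

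Of 13 alveolar macrophage genes Plin2 and Abcg1 rose, by 0.38 and 0.18, and 0 fell. That is 15.4% called where 31.5% of all genes were. Of 14 interstitial macrophage and monocyte genes Adgre1 rose by 0.44 and Maf fell by 0.32, 14.3% called. Adgre1 lost its call in 7 of 24 fits that left out 1 library. Among 19 interferon-induced genes 3 fell, Bst2, Oasl2 (-0.39) and Oasl (-0.44), and 0 rose, a called share of 15.8%. In H alone 3 were higher and 1 lower, in L alone 0 and 3, and the list's median was 0.22 in H and -0.32 in L. Without animals 049 to 052 the list gave 2 higher and 2 lower, and Oasl had -0.05 (adjusted p 0.846). Of 14 genes of antigen presentation RT1-Bb, a class II chain, fell by 1.22 (SE 0.14), from 175 ± 53.6 to 77.9 ± 29.3 CPM, while the immunoproteasome subunit Psmb8 rose by 0.70 (SE 0.13) and B2m by 0.19. Of 10 tested chemokines and cytokines Cxcl3 and Il33 rose, by 0.38 and 0.16. Of 13 acute phase and complement genes Cfb rose by 0.26, while Lbp and Serping1 fell by 1.16 and 1.28, both with differing letters. The antigen presentation, chemokine and acute phase lists had 21.4%, 20% and 23.1% called.

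Genes of energy metabolism and translation had the largest shares of rises among the 41 lists with at least 5 tested members. Of 37 tested nuclear-encoded subunits of the respiratory chain 21 rose and 2 fell, 62.2% called where 31.5% of all genes were. Their median log2 fold change was 0.25. Atp5a1, the catalytic-head subunit alpha of ATP synthase, rose by 0.55 (SE 0.05), from 211 ± 21.1 to 311 ± 32.7 CPM (SD, n = 12) with no overlap. Cox7c of cytochrome oxidase rose by 0.62 (SE 0.09) and Uqcrfs1, the Rieske protein, by 0.43 (SE 0.07). Uqcrb and Cox8a fell, by 0.89 and 0.27. In H 22 members were higher and 2 lower, and in L 10 and 2. Of the 37 members 14 differed between letters, where 19.7% of all genes did. After thinning the blocked counts were 17 and 2. Of 66 tested ribosomal protein genes 34 rose and 5 fell, 59.1% called, with a median of 0.27. Rps23, Rpl27 and Rpl6 rose by 0.54, 0.73 and 0.54 (SE 0.05, 0.08 and 0.06). The members that fell were Rps16, Rpl28, Rps15, Rpl38 and Rps27. Rps27 lost its call in 20 of 24 fits that left out 1 library, and Rpl38 after thinning (adjusted p 0.119). The split was 48 higher and 4 lower in H and 18 and 3 in L. Of the 66 members 30 differed between letters, against 19.7% of all genes. The blocked counts were 51 and 3 without animals 049 to 052. Ribosomal protein genes have many processed copies in the genome, so their counts can be shared with copies.

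**Figure D3:**
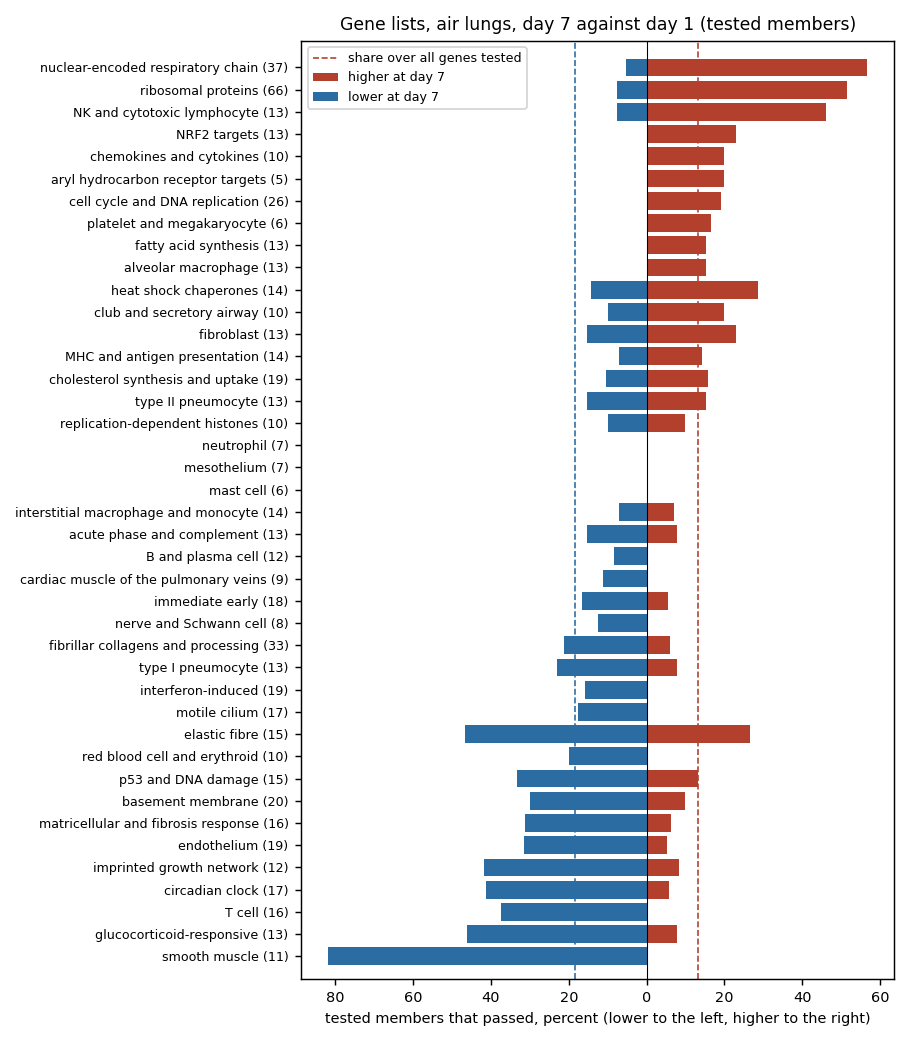
Share of the tested members of each list that were higher (red, right) or lower (blue, left) at day 7 in the blocked comparison, with the number tested in brackets, for the 41 lists with at least 5 tested members. Dashed lines mark the shares over all genes, 13.3% higher and 18.3% lower, which smooth muscle exceeded on the left and respiratory chain and ribosomal protein genes on the right.

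Of 17 tested clock genes 7 fell in the blocked comparison, where 18.3% of all genes did, and 1 rose. After thinning 5 were lower and 0 higher, and 4 were lower and 1 higher both with no filter and with no letter block. Nr1d1, the repressor REV-ERB alpha that closes a feedback loop of the clock, ranged from 7.21 through a median of 17.2 to 30.32 CPM at day 1 and from 1.235 through 6.51 to 32.47 CPM at day 7. It fell by 1.18 (SE 0.27, adjusted p 0.0019) and by 1.97 in H, while L had -0.73 with an adjusted p of 0.13 and the letters did not pass a test of their difference (adjusted p 0.10). Npas2, a partner of the activator Bmal1, fell by 0.62 (SE 0.12), by 1.11 in H and with -0.14 in L. Nr1d2 fell by 0.49 (SE 0.10), Dbp by 0.47, Per3 by 0.33, Cry2 by 0.18 and Clock by 0.18, and the repressor Cry1 rose by 0.40 (SE 0.14). Clock and Cry2 each lost their call in 18 of 24 fits that left out 1 library. In L alone 0 members were higher and 0 lower. Between letters 3 of 17 differed, near the 19.7% of all genes that did. The sources used here give no time of day for the taking of the lungs. Clock and its partners act through the E-box, the letters CACGTG, searched here on both strands in the 250 bases before the start sites of RefSeq on GRCr8. Of all such windows 5.59% held it, and 5 of the 15 clock genes with a window had one that did. The windows of Nr1d1, the clock gene with the largest fall, and of Ciart, which holds 3 copies, are shown with the E-box in capitals. The first is chr10:84229455-84229704 and the second chr2:186112247-186112496, both on the minus strand and given 5′ to 3′.

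Nr1d1: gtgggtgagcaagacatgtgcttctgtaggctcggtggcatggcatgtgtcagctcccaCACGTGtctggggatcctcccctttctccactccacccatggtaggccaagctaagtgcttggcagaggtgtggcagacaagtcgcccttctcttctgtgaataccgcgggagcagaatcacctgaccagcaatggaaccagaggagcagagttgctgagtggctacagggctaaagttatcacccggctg

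Ciart: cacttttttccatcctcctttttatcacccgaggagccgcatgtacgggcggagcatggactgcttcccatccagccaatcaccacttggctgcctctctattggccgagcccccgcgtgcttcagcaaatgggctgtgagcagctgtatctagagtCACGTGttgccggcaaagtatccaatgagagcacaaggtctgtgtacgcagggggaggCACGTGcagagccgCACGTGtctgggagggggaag

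Nr1d1 has a further RefSeq start whose window held no E-box. Ciart, a repressor of the clock, stood at 45.3 ± 10.2 CPM at day 1 and 49.4 ± 4.97 CPM at day 7 (SD, n = 12) and did not pass, so of the pair with windows shown only Nr1d1 was called. Npas2, Nr1d2, Per3, Dbp, Cry2 and Clock were called lower with no CACGTG in their windows.

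Of 13 tested glucocorticoid-responsive genes 6 fell, where 18.3% of all genes did, and 1 rose. Leaving out animals 049 to 052 gave 4 lower and 1 higher. Ddit4, an inhibitor of mTOR signalling, ranged from 10.98 to 50.2 CPM at day 1 and from 5.537 to 19.88 CPM at day 7 and fell by 1.17 (SE 0.22, adjusted p 0.00023), by 1.02 in H and 1.34 in L. Fkbp5, a chaperone of the glucocorticoid receptor, fell by 0.55 (SE 0.17), by 0.94 in H and with -0.10 in L. Errfi1 fell by 0.44, the phosphatase Dusp1 by 0.56, Cdkn1a by 0.48 and Pdk4 by 0.63, and Angptl4 rose by 0.60. Without animals 049 to 052 Dusp1 and Cdkn1a had adjusted p values of 0.163 and 0.0937, and Pdk4 lost its call in 14 of 24 fits that left out 1 library. In H alone 0 were higher and 5 lower, and in L alone 0 and 2. Among 18 immediate early genes 1 rose and 3 fell, 22.2% called where 31.5% of all genes were. Fos, a subunit of the AP-1 factor, ranged from 11.94 to 37.32 CPM at day 1 and from 15.24 to 157.6 CPM at day 7, rising by 1.19 (SE 0.38, adjusted p 0.019). Dusp1, Klf4 and Zfp36 fell. The immediate early list gave 6 higher and 1 lower without animals 049 to 052.

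Of 12 tested genes of the imprinted growth network, which are active in the growing body and decline with age, 5 fell and 1 rose. That is 50% called where 31.5% of all genes were. Dlk1 ranged from 2.879 to 23.23 CPM at day 1 and from 1.439 to 12.18 CPM at day 7 and fell by 1.18 (SE 0.34, adjusted p 0.0093). Neither letter alone called it, and with animals 049 to 052 left out the blocked value was -0.87 (adjusted p 0.0885). Gnas fell by 0.48 (SE 0.08), Plagl1 by 0.70 (SE 0.15), Grb10 by 0.17 and Cdkn1c by 0.32, while Igf2r, which clears the growth factor Igf2, rose by 0.13. The list held 3 lower and 1 higher, with Cdkn1c at -0.15 (adjusted p 0.37), without animals 049 to 052. Of 26 cell cycle and replication genes 5 rose, Cdc20, Top2a, Pcna, Mcm6 and Tyms, by 0.57, 0.46, 0.28, 0.32 and 0.31, and 0 fell. That is 19.2% called. Tyms and Mcm6 lost their calls in 13 and 11 of 24 fits that left out 1 library. After thinning, 19 of the list were tested and 0 passed in either direction. Mki67, the proliferation marker, stood at 57.8 ± 22.2 and 57.5 ± 5.75 CPM. Of 10 histone genes Hist1h2bh rose by 0.59 and Hist1h1d fell by 0.95.

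Of 14 heat shock chaperones 4 rose, among them Hspa8 by 0.52 (SE 0.09) and Hspd1 by 0.23, and 2 fell, Bag3 by 0.77 (SE 0.12) and Hsp90ab1 by 0.54 (SE 0.09), 42.9% called where 31.5% of all genes were. The letters split, with 1 higher and 4 lower in H and 5 higher and 1 lower in L. The day effect differed in 4 of the 14 members, and in 19.7% of all genes. The blocked list gave 2 higher and 3 lower without animals 049 to 052, with Hspd1 at 0.13 (adjusted p 0.127). Of 13 targets of the antioxidant factor NRF2 the thioredoxin reductase Txnrd1, Gsta1 and Gsta4 rose, by 0.31, 0.49 and 0.41, and 0 fell. Of 5 tested targets of the aryl hydrocarbon receptor Tiparp rose by 0.28. Of 15 genes of the p53 response, 46.7% of them called, 5 fell, among them Zmat3 by 1.04 (SE 0.13) and Bax by 0.46, and 2 rose, Ccng1 by 0.26 and Gadd45g by 0.44. In lipid metabolism 3 of 19 cholesterol genes rose and 2 fell, with Msmo1 at 0.36 and Sqle at -0.35, and 2 of 13 fatty acid genes rose, Elovl5 by 0.39 (SE 0.05, no overlap between days) and Fads1 by 0.18. Of 9 heart muscle genes of the pulmonary veins Actc1 fell by 0.70, and of 8 nerve genes S100b fell by 0.80. Actc1 had an adjusted p of 0.0689 without animals 049 to 052. The heart muscle and nerve lists had 11.1% and 12.5% called. Called shares were 23.1% of NRF2, 20% of aryl hydrocarbon receptor, 26.3% of cholesterol and 15.4% of fatty acid genes, against 31.5% of all genes. Among 7 mesothelial and 3 adipocyte genes 0 passed, with Wt1 at -0.56 (adjusted p 0.17) and Cidec at -0.42 (adjusted p 0.28). No cartilage gene was expressed enough to be tested, and of the structural RNAs Rmrp and Terc were tested and did not pass in the blocked fit.

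The letters were then compared directly, by the difference of their day effects. Of the 2719 genes that differed, 1091 (7.91%) had the higher change in H and 1628 (11.8%) the lower. Rps16, a ribosomal protein gene, stood at 167.5 to 240.7 CPM in H and 199.4 to 300.9 CPM in L at day 1. At day 7 it stood at 3.884 to 19.19 CPM in H and 168.7 to 200.1 CPM in L. Its difference was -3.93 (SE 0.27, adjusted p 1.3e-09). Rab27a, a small GTPase of vesicle release, and Ecm1, an extracellular matrix protein, behaved alike, with differences of -2.64 (SE 0.19) and -2.38 (SE 0.16). Rab27a stood at 9.824 to 22.92 CPM in H of day 7 and at 59.06 CPM or more in each other air library of the 2 days. Ecm1 stood at 21.25 to 37.85 CPM in H of day 7 and at 145.9 CPM or more in the other air libraries of those days. Tspan1 and Mrpl40 differed by -3.03 and -2.34. The exposed H lungs of day 7 held 2.775 to 17.27 CPM of Rps16 and the exposed L lungs of that day 128.8 to 161.2 CPM. The low level was thus found in H of day 7 with and without diesel exhaust. At day 27 the order of the air lungs was the other way for Rps16, with 97.39 to 199.3 CPM in H and 11.79 to 60.22 CPM in L. Whether how these libraries were made plays a part was not tested.

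The genes with the higher change in H were Rmrp (2.39), Terc (2.28), Metrn (2.01), Nlrp12 (2) and Tmem107 (1.8). For Rmrp, Terc, the RNA of telomerase, and Tmem107 the difference came with high values in air L of day 1. Terc stood at 20.78 to 79.38 CPM in animals 049 to 052 and at 5.354 to 17.5 CPM in the other 20 libraries. Without animals 049 to 052 none of the 5 genes passed, with differences of 0.23 for Rmrp, 0.65 for Terc, 1.25 for Metrn, 1.74 for Nlrp12 and 0.58 for Tmem107 and adjusted p values from 0.254 to 0.547. The number of genes that differed between letters was then 1005. The 5 genes with the lower change in H still passed. Among the genes whose days did not overlap was LOC103693756, a symbol chosen after its values were seen. It stood at 911.1 to 23220 CPM at day 1 and at 0.681 to 13.5 CPM at day 7, and at 3.26 to 146 CPM in air lungs of day 27. Rn45s, the precursor of ribosomal RNA and chosen in the same way, stood at 1.27 to 36.3 and 0 to 1.45 CPM.

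**Figure D4:**
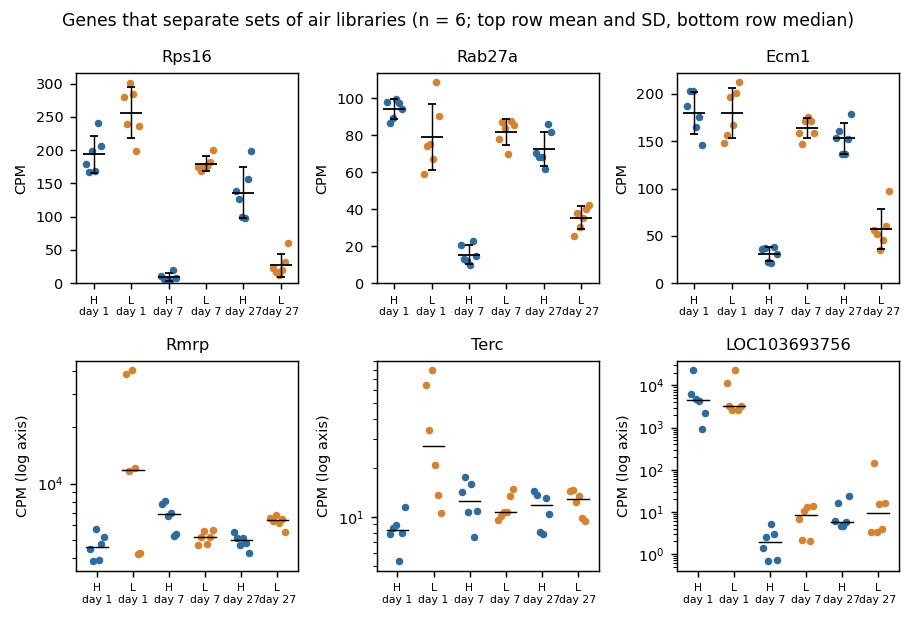
CPM per air library of 6 genes at days 1, 7 and 27 in H (blue) and L (orange), 6 libraries per group. The top row, on linear axes with mean and SD, is lowest in air H of day 7, and the bottom row, on log axes with a line at the median, is high in 4 air L libraries of day 1 (Rmrp, Terc) or in all 12 libraries of day 1 (LOC103693756).

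The same contrast was available in 24 exposed lungs of other animals, 12 per day and 6 per letter, which share no library with the air lungs but share the letters and the shallower libraries of day 1. Animal 037, an exposed H lung of day 7, held 105453 counts, and without it 4204 genes passed. Exposed lungs called 4069 of 12532 genes (32.5%), 1787 higher (14.3%) and 2282 lower (18.2%). Of the 4347 genes called in air, 4203 were tested there and 2949 were called the same way, which is 67.8% of the air calls and 72.5% of the exposed calls. None (0) was called the other way, 1189 had the same sign without a call and 65 the other sign. Acta2 fell by 1.81 in exposed lungs, Eln by 0.93, Tgfb1 by 1.35 and Col1a1 by 1.51, and Sftpc rose by 0.69. Smooth muscle gave 0 higher and 9 lower of 11, the respiratory chain 24 and 1 of 37 and ribosomal proteins 46 and 3 of 66. Other lists gave fewer calls in exposed lungs than in air. In exposed lungs the glucocorticoid-responsive list had 2 higher and 1 lower of 13, the clock list 2 and 1 of 17 and the cytotoxic list 1 and 2 of 12. Ddit4 had -0.40 (adjusted p 0.42), Fkbp5 0.28 (0.39) and Dlk1 -0.32 (0.50) in exposed lungs. The day effect of air minus that of exposed lungs was tested directly in edgeR over 48 libraries, animal 037 among them. This test was not repeated without animal 037. The difference passed in 0 of 13480 genes (0%), with 686 at an unadjusted p under 0.05. The lists that differ in these counts are therefore not shown to differ in the day effect.

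**Figure D5:**
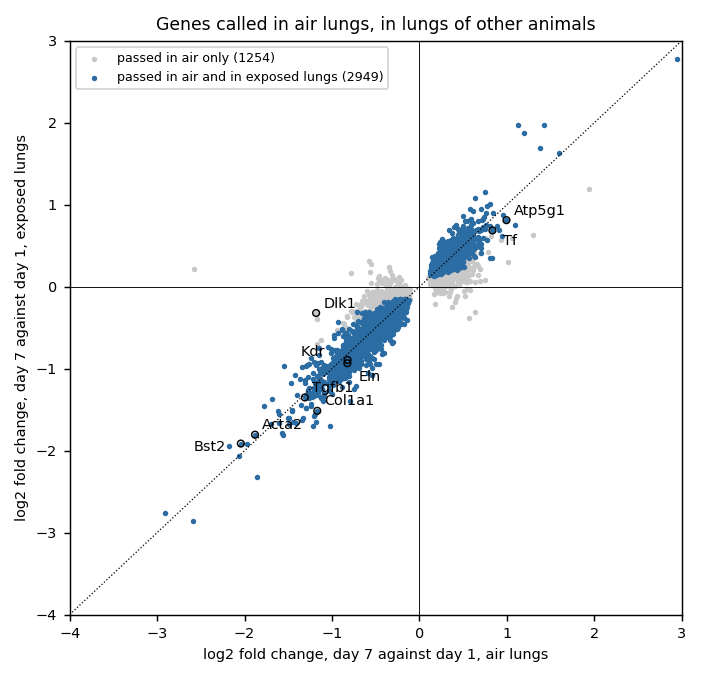
Log2 fold changes, day 7 against day 1, of the 4203 genes called in air and tested in exposed lungs, in air lungs on the x axis and in exposed lungs of other animals on the y axis, with 2 genes outside the axes. The 2949 blue genes passed in both and lie near the dotted line of equal change, and Dlk1 is among the 1254 grey genes that passed in air only.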

How the data were processed

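Total RNA of rat lung was sequenced after ribosomal RNA depletion with a stranded kit, per the labels' protocols, with 1 library per animal. The authors deposited a table of whole-number read counts per gene symbol for all 72 libraries. Tools in the submitters' processing notes, listed there without steps, are HISAT2 2.1.0, HTSeq 0.6.1, Trimmomatic 0.35, SAMtools 1.8 and bcl2fastq 2.19, and the build is Rnor_6.0. No annotation release is named in the available sources, and they do not say whether strand was counted. Overlapping genes may therefore share reads. RefSeq spans of other genes overlapped 43.9% of the matched tested genes. In the blocked fit the share was 39.7% of matched genes called higher at day 7 and 48.8% of those called lower. Whether shared reads affect the direction of the calls was not tested.

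Of 30042 gene symbols 24383 had a count in the 72 libraries of the series and 22735 in the 24 air libraries. For genes that passed filterByExpr, edgeR 4.0.16 (R 4.3.3) gave the quasi-likelihood test with TMM factors, robust dispersions and Benjamini-Hochberg adjustment over all tested genes at 0.05. The blocked fit holds letter and day. A fit of 4 group means gave the day effect in H, in L, and their difference. Each library is a separate animal by its label, and p-values measure only the spread between these libraries. Alternatives used other factors and filters, DESeq2 1.42.0, limma-voom 3.58.1, counts thinned to 1288275, and fits without named libraries. The comparison and the 44 gene lists (767 genes, 733 found and 626 tested) were chosen with earlier results of these data known. Named genes were the 10 largest rises and 10 largest falls called in H, in L and blocked, with no called difference, a proper symbol and a mean log2 CPM of at least 2. To these were added the 5 largest differences each way between letters, and up to 4 called members of each list by p-value, with further members where the account of a list turns on them, and a few genes that the rule names are not reported here. The edgeR fits by block, by letter and for the difference of the letters were tested at default settings on simulated counts of 24 air libraries. The air minus exposed fit over 48 libraries was not, nor were the other factors, the other filters and the fold limit.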

Additional observations from a re-analysis of the deposited data

Results flagged for a closer look

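The day effect differed between air H and air L in 2719 genes (19.7%), by a test of the difference itself. Of the 626 tested list members 151 differed. The named genes with the lower change in H had differences of -3.93 (Rps16), -3.03 (Tspan1), -2.64 (Rab27a), -2.38 (Ecm1) and -2.34 (Mrpl40) on the log2 scale. The named genes with the higher change in H had differences of 2.39 (Rmrp), 2.28 (Terc), 2.01 (Metrn), 2 (Nlrp12) and 1.8 (Tmem107), and these are the genes that no longer passed without animals 049 to 052.

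Single libraries lay far from the others of their group in 5 of 120 groups of 6 libraries examined, where chance gives about 1 in 20. In air L of day 7, animal 68 had the highest Stmn1 level at 109.9 CPM and animal 65 the highest Wdr83os level at 42.12 CPM. For Nlrp12, animal 53 of air L, day 1, was lowest at 2.159 CPM and animal 11 of air H, day 7, highest at 13.17 CPM. Tmem107 was highest in animal 2 of air H, day 1, at 16.57 CPM.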

How the results depend on the processing

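No paired analysis was possible because the animal numbers of day 1 and day 7 are not shared between groups. With a test against a fold of 1.5, 128 genes passed in the blocked fit, 602 in H, 32 in L and 147 for the difference between letters. Without animals 049 to 052, a setting chosen after seeing the data, L called 664 genes and the difference 1005. The other settings kept each count within 1.5 times the reported one. For the blocked fit they gave 4553 with upper-quartile factors (51.6% higher), 4887 with no scaling factors (59.8% higher) and 4312 with no filter (54.1% higher), against 42% as reported. Leaving out 1 library at a time gave 3996 to 4630 blocked calls, 4803 to 5532 in H, 1579 to 2346 in L and 2235 to 3082 for the difference. The lowest L count and the lowest difference came without animal 049. With animals 053 and 054 left out, L called 2789 genes and the difference 3483. The blocked calls of 233 genes were followed, namely the named shared rises and falls and the list members called in the blocked fit. Of these, 164 kept their call in every setting that tested them and 69 lost it in at least 1. Genes named only for a difference between letters are not among the 233. The fold limit and the fits without 1 library are not counted there. In a fit without 1 library 40 lost their call, and 0 reversed in any setting. Without animals 049 to 052 the median of the ribosomal list was 0.38 and that of the collagen list -0.02. The depth of day 1 limits genes of low count, and the cause of these changes was not tested.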
